A study of Mus musculus with 45 samples.

Results

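The 10 genes described here encode carriers through which the epithelium of the small intestine moves sugars, peptides, amino acids, sodium and iron. They were taken by gene name from the tables of sorted cells and of organoids, where each was 1 of 52636 genes. All 10 passed the filter on low values in every comparison below.

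RNA was sequenced from 15 libraries of sorted Lgr5-positive cells and from 30 libraries of organoids, all from mouse small intestine. In the Lgr5-DTReGFP line a reporter sits in the Lgr5 gene and disrupts that copy, so heterozygous mice (HE) keep 1 working copy and homozygous embryos (KO) keep none. eGFP-positive cells came from the whole small intestine of E16.5 embryos, as 2 HE pools (7 and 8 embryos) and 2 KO pools (2 and 6 embryos) from the same 2 litters, from E18.5 HE embryos (2 libraries), and from 2 HE mice at 2 months of age, each of which gave a library of duodenum and one of ileum. In the Lgr5-Cre line, 2 Lgr5-Cre/+ mice (Cre HE) and 3 Lgr5-Cre/flox mice (cKO) were 2 months old, all received 2 mg of tamoxifen, and their ileal eGFP- and RFP-positive cells were taken 48 hours later. In cKO mice the inducible Cre that removes the floxed Lgr5 exon is itself driven from Lgr5, so the control mice also carry 1 disrupted copy. Organoids were grown at passage 4 from E17.5 embryos of the Lgr5-DTReGFP line, as 3 wild-type (WT) cultures (numbers 10, 5 and 30) and 2 KO cultures (numbers 7 and 2). Each culture was kept in 6 media, with mouse Rspo1, Rspo2 or Rspo3 at 100 or 5 ng/ml, so a group of WT organoids held 3 libraries and a group of KO organoids held 2.

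Absorptive enterocytes carry these proteins. At the brush border, the membrane facing the gut lumen, sugars enter through a sodium-coupled and a facilitative carrier, short peptides enter with protons, and free amino acids enter through sodium-coupled and exchange carriers, while glucose and iron leave through carriers of the basolateral membrane. Stem cells in the crypts give rise to enterocytes, and R-spondins are secreted ligands that bind LGR receptors and strengthen the Wnt signal on which those stem cells depend.

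Values are CPM, a gene's reads scaled to the same total of reads on genes in each library. The sorted libraries held 1276229 to 9994740 reads on genes and 29 of the 30 organoid libraries 18127764 to 33105690, and for the remaining organoid library this could not be read from the values. A read was worth 0.1 to 0.784 CPM in sorted cells, so members of a few CPM rested on few reads there. At E16.5, Lgr5 read 104 and 125 CPM in HE but 64.75 and 51.65 CPM in KO pools (called lower, adjusted p = 0.0795), and the flox removes an exon only, so a count over the whole gene does not check the cKO label. In organoids Lgr5 did not separate the genotypes over culture means, with a difference of -0.37 (KO minus WT, 95% interval -0.94 to 0.21, adjusted p = 0.715). KO cultures lay below WT cultures at 100 ng/ml of Rspo1 (57.85 and 91.65 against 94.2 to 192 CPM) and of Rspo2 (104 and 75.0 against 247 to 457.5 CPM). At 5 ng/ml of Rspo2 it read 20.55 and 90.45 CPM in KO against 6.1 to 28.7 CPM in WT cultures. Its response to the dose of Rspo2 differed by genotype (KO minus WT, -3.51, adjusted p = 0.0434 by limma). Its level thus varied with the medium and does not by itself check the organoid labels. The study's supplementary table gives 2 of the 5 Cre libraries (HE replicate 1 and cKO replicate 2) the other genotype, and the calls of members in that line are given both ways. Epcam, an epithelial gene, was at 844 to 1279 CPM in all sorted libraries, and the summed CPM of 7 stem cell markers was 579 to 6076. Markers of other cell kinds were also read in those libraries. The sum of 6 immune markers was 7.35 to 80.85 at E16.5 and E18.5 against 953 to 4157 in adults, that of 6 Paneth markers 83.9 to 267 against 2641 to 28690, and that of 6 mesenchymal markers 711 to 1657 in E16.5 HE pools, 163 to 444 in KO pools and 1.85 to 73.8 later. Ptprc, of the immune list, did not follow its sum in every group. It read 31.35 and 17.7 CPM in E16.5 HE pools and 1.65 to 9.55 CPM in the Cre libraries. In adult duodenum it read 56.9 and 71.4 CPM, and in adult ileum 12.2 and 27.05 CPM. In bulk libraries, a change in the share of cells that express a gene and a change in RNA per cell cannot be told apart.

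The start regions of 2 members are shown for their differences between doses of R-spondin, described further on, 1 that fell with every ligand in WT organoids (Slc3a1) and 1 with the widest difference (Slc15a1). Each window runs from 250 bases before to 50 bases after the transcription start in RefSeq (GRCm38.p6), 5′ to 3′ along the gene's strand, with matches to the searched motifs in capitals. Slc3a1 is read from chr17:85028097-85028396 (plus strand) and Slc15a1 from chr14:121505205-121505504 (minus strand).
Slc3a1: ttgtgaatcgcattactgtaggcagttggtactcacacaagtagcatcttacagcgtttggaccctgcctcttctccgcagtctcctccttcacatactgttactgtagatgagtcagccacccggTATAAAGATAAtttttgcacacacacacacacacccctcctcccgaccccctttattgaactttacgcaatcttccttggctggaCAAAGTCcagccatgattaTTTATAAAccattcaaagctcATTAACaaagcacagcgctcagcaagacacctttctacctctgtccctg
Slc15a1: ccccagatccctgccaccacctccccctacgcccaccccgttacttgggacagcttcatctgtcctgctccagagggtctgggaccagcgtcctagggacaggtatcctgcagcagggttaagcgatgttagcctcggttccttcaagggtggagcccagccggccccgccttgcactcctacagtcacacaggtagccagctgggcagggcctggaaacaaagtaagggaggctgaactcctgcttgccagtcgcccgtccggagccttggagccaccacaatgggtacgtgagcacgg
Windows were held for 8 of the 10 members (Slc7a9 with 2), and for neither Slc40a1 nor Slc11a2. Motifs were searched on both strands and counted over all 32851 windows of this length. The letters CAAAGTC (an HNF4 site) were in 4.4% of them, the HNF1 half-site GTTAAT was in 7.1%, the CDX site TTTATG in 11.9%, the GATA site AGATAA in 11.2%, the TCF site ATCAAAG in 3.7% and the TATA box TATAAA in 13.6%. In Slc3a1 the HNF4 letters lay at -39 and a TATA box at -18 from the start, the HNF1 half-site lay just after it at 2, and a further TATA box at -124 overlapped the GATA letters at -119. Slc7a9 held the GATA letters in 1 of its windows, and the other 6 members with a window held none of the 6 motifs. A match or its absence describes these letters only.

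The first question was how the transporters differed between the sorted HE cells of E16.5 and E18.5. Of the 10 members, 7 rose and none fell, with a median difference of 0.75 on the log2(CPM + 1) scale against 0.23 over all 18408 genes tested, of which 49.6% were called (FDR 0.1 and a fold of at least 1.5, by limma). That share is high, so a count of called members says little here and the sizes carry the description. Removing either E18.5 library left 0 members called and 780 or 768 genes called in all, with the lone library assumed to vary like the E16.5 pools. With TMM scaling 4 members were called (Slc15a1, Slc6a19, Slc3a1 and Slc9a3).

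**Figure D1:**
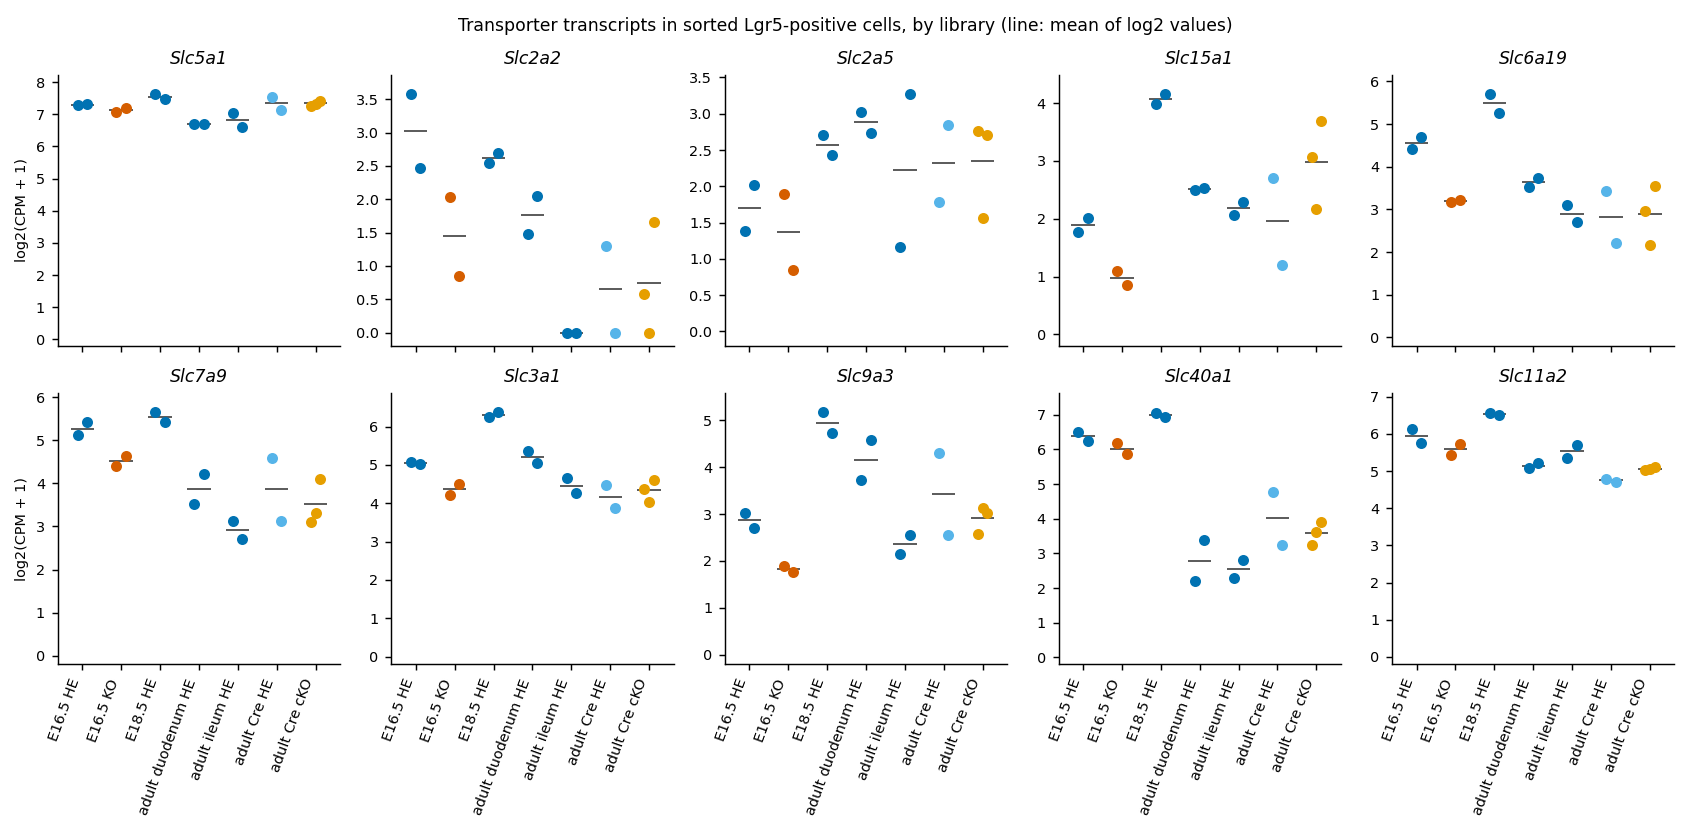
Level of each transporter as log2(CPM + 1) in the 15 libraries of sorted cells, grouped by stage, region and genotype, with each point 1 library and each line the mean of the log2 values of a group. Slc40a1 sits between 57.2 and 133 CPM in the 6 embryonic libraries and between 3.6 and 26.4 CPM in the 9 adult libraries.

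Among the sugar carriers, Slc5a1, the sodium-glucose cotransporter of the brush border (chr5:33104219-33162870, plus strand), was the highest member per length of transcript at each stage. It was at 154 and 157 CPM in E16.5 HE pools and at 196 and 176 CPM at E18.5, and the difference of 0.25 ± 0.11 (SE, log2) was not called (adjusted p = 0.0907). Slc2a5, the fructose carrier (chr4:150119283-150144169, plus strand), went from 1.6 and 3.05 CPM, which were 2 and 6 reads, to 5.55 and 4.4 CPM. Its difference of 0.87 ± 0.38 was only just called (adjusted p = 0.0993) and was not called with TMM scaling, without the filter, or with a pseudocount of 0.1. Slc2a2, the facilitative glucose carrier of the basolateral side (chr3:28697903-28731359, plus strand), read 11.0 and 4.55 CPM at E16.5 and 4.85 and 5.5 CPM at E18.5, where the stages overlapped (95% interval of the difference -1.45 to 0.64).

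Slc15a1, the proton-coupled peptide carrier (chr14:121459621-121505252, minus strand), rose the most of the 10. It went from 2.4 and 3.05 CPM, 3 and 6 reads, to 14.8 and 16.9 CPM (difference 2.18 ± 0.30, adjusted p = 0.00241). Slc6a19, the brush-border carrier of neutral amino acids (chr13:73679745-73704865, minus strand), rose from 20.4 and 24.75 to 51.2 and 37.5 CPM (0.93 ± 0.21, adjusted p = 0.0128). The stages did not overlap for either gene. Slc3a1 (chr17:85028376-85064236, plus strand) and Slc7a9 (chr7:35448796-35466036, plus strand) encode the paired subunits of the carrier of cystine and basic amino acids. Slc3a1 went from 32.95 and 31.8 to 75.2 and 81.5 CPM (1.25 ± 0.13, adjusted p = 0.00104). Slc7a9 was at 33.75 and 41.9 and then at 49.15 and 41.85 CPM (0.26 ± 0.17, adjusted p = 0.248), and the difference between the 2 subunits was not itself tested. Slc3a1 overlaps Prepl, on the opposite strand, over 601 exon bases, and whether reads were assigned by strand is not given in the sources used here.

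Slc9a3, the sodium-proton exchanger of the brush border (chr13:74121457-74169442, plus strand), rose from 7.1 and 5.55 to 34.85 and 25.45 CPM (2.08 ± 0.27, adjusted p = 0.00192). The iron carriers rose less. Slc40a1, ferroportin, which exports iron into the body (chr1:45908068-45926523, minus strand), went from 90.15 and 74.7 to 133 and 123 CPM (0.63 ± 0.13, adjusted p = 0.0104). Slc11a2, which imports divalent iron (chr15:100387898-100425072, minus strand), went from 69.0 and 53.5 to 94.35 and 90.5 CPM (0.60 ± 0.15, adjusted p = 0.0200). Both fell short of the fold limit with TMM scaling. The summed CPM of 14 enterocyte markers was 2467 to 3070 in E16.5 HE pools and 3474 to 4092 at E18.5, where 6 of them rose and 2 fell. The stem cell sum was 579 to 633 in E16.5 HE pools and 2851 to 2956 at E18.5. The mesenchymal sum went from 711 to 1657 down to 63.55 to 73.8. The part of any of these sums in the results was not tested.

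From E18.5 to the adult crypt the direction turned. All 10 members had negative differences, 8 were called as lower and none as higher (median -1.71 against -0.04 over 19554 genes, 19% called). The 4 adult libraries came from 2 mice, and with the 2 regions of each mouse averaged 9 members were called. Leaving out either E18.5 library left 4 called. Embryonic cells came from the whole small intestine and adult cells from 2 segments, so stage and the piece of gut sampled cannot be told apart.

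Slc40a1 had the widest difference among these genes in sorted cells. It was at 133 and 123 CPM at E18.5, at 3.6 and 9.45 CPM in adult duodenum and at 3.9 and 6.0 CPM in adult ileum (-4.335 ± 0.33, adjusted p = 3.01e-04), and no adult library came near the embryonic ones. Its order among the 10 members by CPM per kilobase of exon went from 5 at E18.5 to 9 in adult duodenum. Slc6a19 fell to 10.55 and 12.35 CPM in duodenum and 7.55 and 5.5 CPM in ileum (-2.22 ± 0.31, adjusted p = 0.00365). Slc7a9 fell to 10.55 and 17.75 CPM and to 7.8 and 5.5 CPM (-2.14 ± 0.38, adjusted p = 0.0101), and its partner Slc3a1 to 40.0 and 32.1 CPM and to 24.35 and 18.1 CPM (-1.48 ± 0.28, adjusted p = 0.0132). Slc15a1 fell to 3.2 to 4.75 CPM (-1.73 ± 0.22, adjusted p = 0.00265) and Slc11a2 to 32.65 to 51.3 CPM (-1.21 ± 0.18, adjusted p = 0.00529).

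Slc5a1 moved the least of the called members, to 96.0 to 130 CPM (-0.79 ± 0.14, adjusted p = 0.0105), and stayed first per length, at 24.9 CPM per kilobase in adult duodenum against 45.3 at E18.5. Slc2a2 was at 1.8 and 3.15 CPM in duodenum and listed at 0 in both ileal libraries, and its call (adjusted p = 0.0966) did not hold with TMM scaling or without the filter. Slc9a3 read 12.15 and 22.7 CPM in duodenum and 3.45 and 4.85 CPM in ileum, all below the 34.85 and 25.45 CPM of E18.5. Its difference was not called over the 4 libraries (-1.70 ± 0.63, adjusted p = 0.111) and was called with the ileum alone (-2.59, adjusted p = 8.22e-04) and with the duodenum alone (-0.80, adjusted p = 0.0685). Slc2a5 overlapped between the stages, at 1.25 to 8.7 CPM in adults (95% interval -1.31 to 1.27). Enterocyte markers fell in the same comparison, 8 of 14 lower and 2 higher, from a sum of 3474 to 4092 to one of 781 to 2046. The Paneth and immune sums were higher, as given above, and the part of these markers in the result was not tested.

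**Figure D2:**
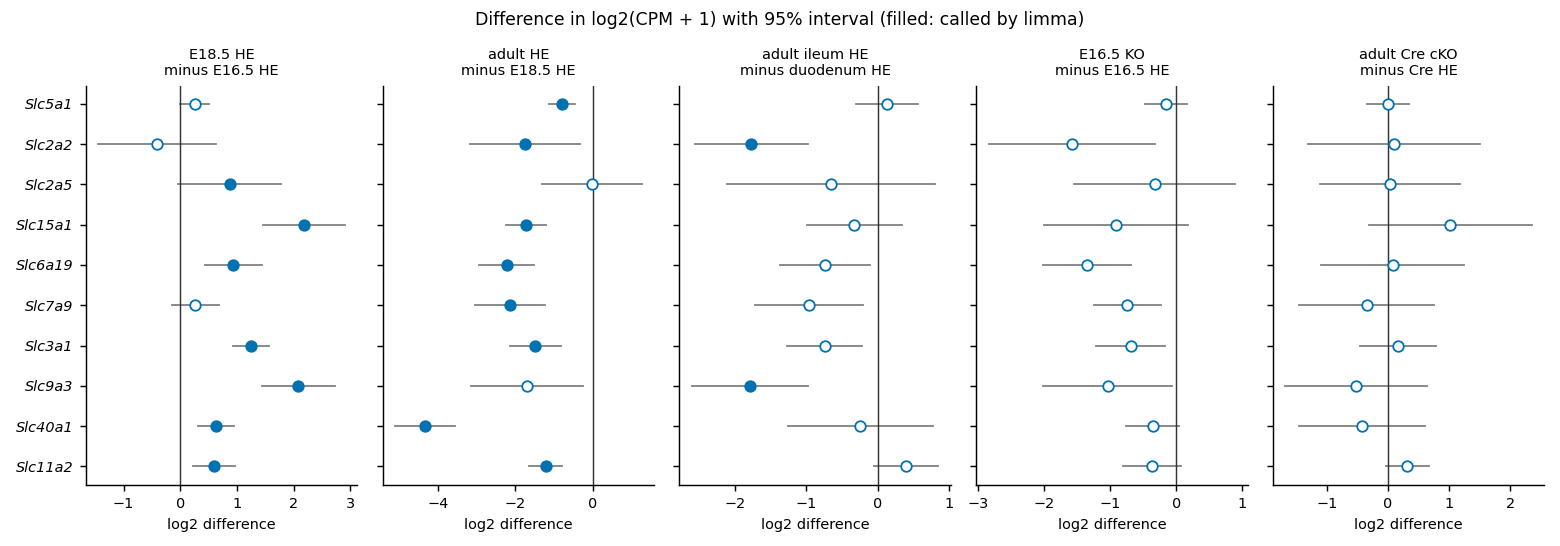
Difference in log2(CPM + 1) for each transporter in the 5 comparisons of sorted cells, with bars for the 95% interval and filled points for genes called. The points for adult HE minus E18.5 HE all lie at or below 0, down to -4.335 for Slc40a1, and no point is filled in the 2 comparisons of genotype, with the Cre libraries grouped by their GEO labels.

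The next comparison asked whether the ileum of the adult mice differed from their duodenum. Members were lower in the ileum in 8 of 10 cases, with 2 called, both lower, of which Slc2a2 passed the filter on low values through the duodenal libraries alone (median -0.70 against 0.03 over 18608 genes, 6.88% called). Slc2a2, at 1.8 and 3.15 CPM in duodenum, was listed at 0 in both ileal libraries, where a read was worth 0.229 to 0.243 CPM, and having entered the fit only through the region where it was read, its call is no support for a difference. Slc9a3 was at 12.15 and 22.7 CPM in duodenum and 3.45 and 4.85 CPM in ileum (-1.79 ± 0.35, adjusted p = 0.0344). Pairing the regions by mouse added Slc3a1 (-0.74 ± 0.16, adjusted p = 0.0257), for 3 members called. Neither call of the unpaired fit held without the filter (adjusted p = 0.137 for Slc2a2 and 0.196 for Slc9a3). Leaving out a library gave 2 members called without the first duodenal library and 0 without any of the other 3.

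The other differences between regions were not called, among them Slc7a9 (-0.96, adjusted p = 0.185) and Slc6a19 (-0.74, adjusted p = 0.225). Slc5a1 (95% interval -0.31 to 0.56) and Slc11a2 (-0.06 to 0.85) had intervals that held 0. Of the 14 enterocyte markers, 10 were called lower in the ileum and none higher. Their sum was 1507 to 2046 in duodenum and 781 to 855 in ileum. The sum of 5 tuft markers was lower in ileum (248 to 460 against 2027 to 3476). That of 6 goblet markers was higher there (2012 to 7448 against 1367 to 1555), as was the immune sum (2820 to 4157 against 2242 to 2520). The part of any of these markers in the result was not tested. The 3 duodenal markers summed to 408 and 416 CPM in duodenum and 141 and 187 CPM in ileum, and the 3 ileal markers to 7.25 and 8.45 CPM and to 77.45 and 80.0 CPM, as the labels give the regions.

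Loss of Lgr5 was compared at E16.5. All 10 members were lower in KO than in HE pools, with a median difference of -0.72 against 0.07 over 17276 genes, and 0 were called by limma (0.527% of genes called, 15 higher and 76 lower), while 5 had an unadjusted p under 0.05, as did 2354 of all genes. The numbers of the pools mark litters, and with the litter as a block 3 members were called, namely Slc6a19, Slc2a2 and Slc7a9, among 830 genes in place of 91. edgeR on the recovered reads called 1 member, Slc6a19, among 310 genes.

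Slc6a19 was at 20.4 and 24.75 CPM in HE pools and at 8.05 and 8.35 CPM in KO pools, from 21 to 49 reads each. The pools did not overlap, and the difference was -1.35 ± 0.30 with an adjusted p of 0.111 unblocked, 0.00779 with the litter block, 0.0732 with TMM scaling and 0.0443 by edgeR. Slc7a9 was at 33.75 and 41.9 CPM against 20.3 and 23.85 CPM (-0.75, adjusted p = 0.214, and 0.0715 with the block). Slc3a1, at 32.95 and 31.8 CPM against 17.65 and 21.85 CPM, was lower by a like amount (-0.69, adjusted p = 0.254). Slc9a3 read 7.1 and 5.55 CPM against 2.7 and 2.4 CPM, and Slc2a2 read 11.0 and 4.55 CPM against 3.1 and 0.8 CPM, on 14 reads or fewer in each pool. Slc5a1 (95% interval -0.47 to 0.15), Slc40a1 (-0.76 to 0.05) and Slc11a2 (-0.81 to 0.07) had intervals that held 0.

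Some other enterocyte genes were also lower in the same KO pools. Of 14 enterocyte markers 7 were called lower and none higher, among them Fabp1, a fatty acid binding protein (-1.70, adjusted p = 0.0198), and Lct, the lactase (-1.51, adjusted p = 0.0386), and their sum was 2467 to 3070 in HE against 1484 to 1622 in KO pools. Vil1, of the same 14, went the other way without a call, at 299.1 and 279.5 CPM in KO against 244.6 and 235.6 CPM in HE pools. Other marker sums also separated these pools. The mesenchymal sum was higher in HE pools, as given above, and the immune sum was 43.5 to 80.85 in HE against 7.35 to 21.5 in KO pools. The Paneth sum was lower in HE (83.9 to 92.6) than in KO pools (140.2 to 267), as were the goblet sum (368 to 396 against 486 to 768) and the stem cell sum (579 to 633 against 807 to 823). The part of any of these markers in the lower transporter values was not tested.

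In the adult Cre line, 48 hours after tamoxifen, none of the 10 members was called between cKO and Cre HE cells, and none had an unadjusted p under 0.05 (median 0.05 against 0.09 over 19848 genes, 0.0504% called). Slc5a1 was at 153 to 171 CPM in the 3 cKO libraries and at 184 and 140 CPM in the 2 HE libraries (95% interval -0.35 to 0.35). Slc11a2 was at 31.65 to 33.4 CPM in cKO and 26.85 and 25.0 CPM in HE cells, which did not overlap (0.32 ± 0.15, adjusted p = 0.864). Slc40a1 read 26.4 and 8.45 CPM in HE and 8.5, 11.2 and 13.85 CPM in cKO cells, with wide overlap. With the genotypes of the supplementary table, 2 members were called as higher in cKO cells, Slc15a1 (1.47 ± 0.39, adjusted p = 0.0947) and Slc6a19 (1.13 ± 0.27, adjusted p = 0.0772), among 779 genes called in place of 10. Slc15a1 was then at 5.55, 7.4 and 11.85 CPM in cKO and at 1.3 and 3.5 CPM in HE cells, and which assignment is right could not be settled from these values.

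In the organoids the dose of R-spondin was the first comparison. In the paper all organoids survived at 5 ng/ml of Rspo2, while full survival needed 100 ng/ml of Rspo1 or Rspo3. The part of survival in the dose and ligand results was not tested. In WT organoids, 21 of 30 member calls were made over the 3 ligands (FDR 0.05), all of them lower at 100 than at 5 ng/ml. With Rspo1, 8 members were lower (53.4% of 19130 genes called, median of members -1.31 against 0.28 over all genes). With Rspo2, 5 were lower (33.4% called, median -0.91 against 0.17), and with Rspo3, 8 were lower (51.4% called, median -1.22 against 0.24). Most genes called overall went the other way, since 72.7 to 76.6% of them were higher at 100 ng/ml. TMM scaling moved the median of all genes by -0.19 to -0.27 in these contrasts and that share to 42.3 to 54.1%, and left 21 member calls. Counted over pairs of a member with a culture, CPM was higher at 5 ng/ml in 30 of 30 pairs with Rspo1. The count was 25 of 30 with Rspo2 and 26 of 30 with Rspo3. Over all genes tested the shares were 30.3, 35.1 and 32.5%. All members of a culture share its libraries, so these pairs are not replicates of the dose. The 3 contrasts use separate libraries from the same 3 cultures.

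**Figure D3:**
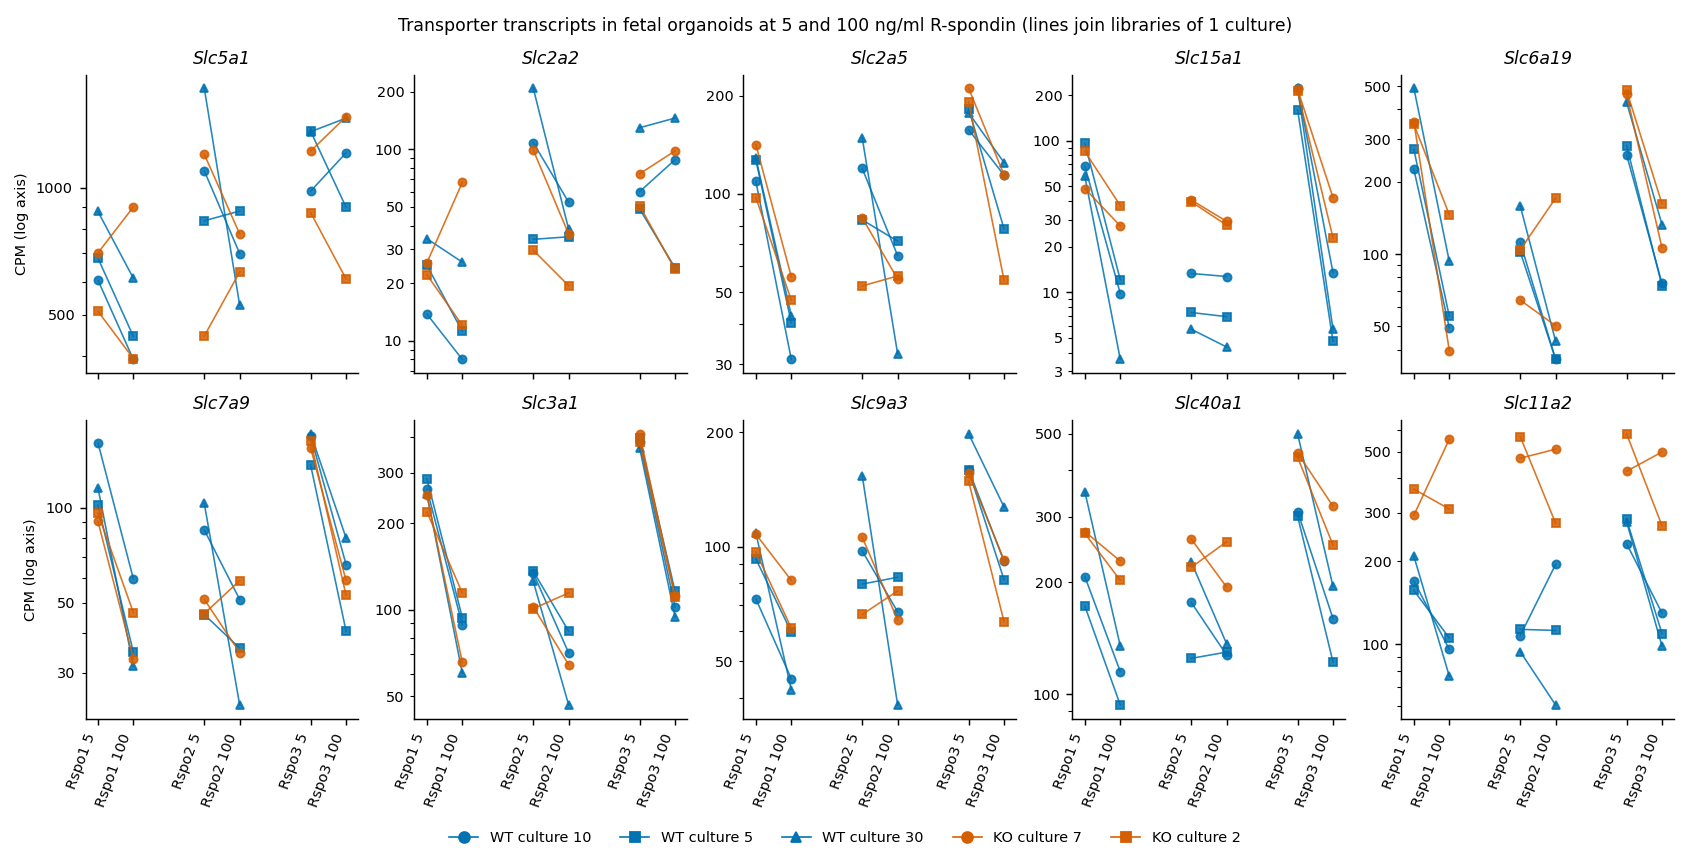
CPM of each transporter on a log axis in the 30 organoid libraries, at 5 and 100 ng/ml of Rspo1, Rspo2 and Rspo3, with WT cultures in blue, KO cultures in orange and lines joining libraries of 1 culture. Slc15a1 drops from 160 to 222 CPM at 5 ng/ml of Rspo3 to 4.75 to 13.45 CPM at 100 ng/ml in WT cultures while its doses overlap with Rspo2, and Slc11a2 is higher in KO than in WT cultures in all 6 media.

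Slc15a1 had the widest response to dose. With Rspo3 it was at 222, 160 and 222 CPM in WT cultures 10, 5 and 30 at 5 ng/ml, and at 13.45, 4.75 and 5.7 CPM at 100 ng/ml (-4.61 ± 0.40, adjusted p = 5.56e-09). With Rspo1 it was at 67.9, 96.15 and 58.1 CPM and at 9.8, 12.05 and 3.6 CPM (-3.08 ± 0.40, adjusted p = 2.07e-06). With Rspo2 the doses overlapped, at 13.3, 7.35 and 5.7 CPM and at 12.7, 6.9 and 4.35 CPM. The 3 libraries at the low dose of Rspo2 lay within the range of the libraries at the high dose of the other ligands.

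The amino acid carriers responded to all 3 ligands. Slc3a1 was at 263, 286 and 252 CPM in the 3 WT cultures at 5 ng/ml of Rspo1 and at 88.45, 93.8 and 60.1 CPM at 100 ng/ml (-1.74 ± 0.21, adjusted p = 1.05e-06). With Rspo2 it went from 126 to 136 CPM down to 46.6 to 84.15 CPM (-1.005 ± 0.21, adjusted p = 0.00116), and with Rspo3 from 367 to 395 CPM down to 94.5 to 116 CPM (-1.87 ± 0.21, adjusted p = 1.77e-07). The doses did not overlap with any of the 3. Prepl, which shares 601 exon bases with Slc3a1 on the opposite strand, was also called lower at 100 ng/ml (-0.85, -0.48 and -1.06). It was called in the same direction as Slc3a1 in each unblocked organoid contrast in which Slc3a1 is called below. Without strand, reads over the shared bases cannot be assigned to 1 of the genes. Slc6a19 fell by 2.28, 1.64 and 1.79 on the log2 scale with Rspo1, Rspo2 and Rspo3, and Slc7a9 fell by 1.60, 1.05 and 1.39. Culture 30 had the highest Slc6a19 of the WT cultures in all 6 media, 43.3 to 491 CPM.

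The sugar carriers split. Slc2a5 fell with each ligand, by 1.67, 1.09 and 0.73 on the log2 scale for Rspo1, Rspo2 and Rspo3, from 109 to 129 CPM to 31.05 to 42.3 CPM in the first case. Slc5a1 and Slc2a2 were not called with any ligand. Slc5a1 was the most abundant member, at 392 to 1724 CPM in WT organoids, and Slc2a2 ranged from 8.0 to 209 CPM. Both were lower at 100 ng/ml of Rspo1 in all 3 cultures. With the culture as a block, Slc5a1 was called with Rspo1 (adjusted p = 0.0430) and Rspo2 (adjusted p = 0.0156), and Slc2a2 (adjusted p = 0.0474) and Slc40a1 (adjusted p = 0.0324) with Rspo2, for 25 calls in all. Over all genes and the 3 ligands, the block took the calls from 26458 to 33176.

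Slc9a3 fell by 0.89, 0.81 and 0.79 on the log2 scale with the 3 ligands. With Rspo2 its doses overlapped. In cultures 10, 5 and 30 it was at 97.4, 79.7 and 154 CPM at 5 ng/ml and at 67.35, 83.05 and 38.3 CPM at 100 ng/ml. Slc40a1 fell by 1.03 with Rspo1, from 207, 172 and 350 CPM in cultures 10, 5 and 30 to 115, 93.5 and 135 CPM, and by 1.20 with Rspo3, from 301 to 501 CPM to 122 to 195 CPM. Slc11a2 fell by 0.94 with Rspo1 and by 1.23 with Rspo3, in which the WT cultures went from 232 to 284 CPM to 98.65 to 130 CPM. Neither iron carrier was called with Rspo2 without that block, where Slc11a2 read 107.5, 113 and 94.2 CPM at 5 ng/ml and 195, 112 and 60.25 CPM at 100 ng/ml (95% interval -0.58 to 0.71).

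**Figure D4:**
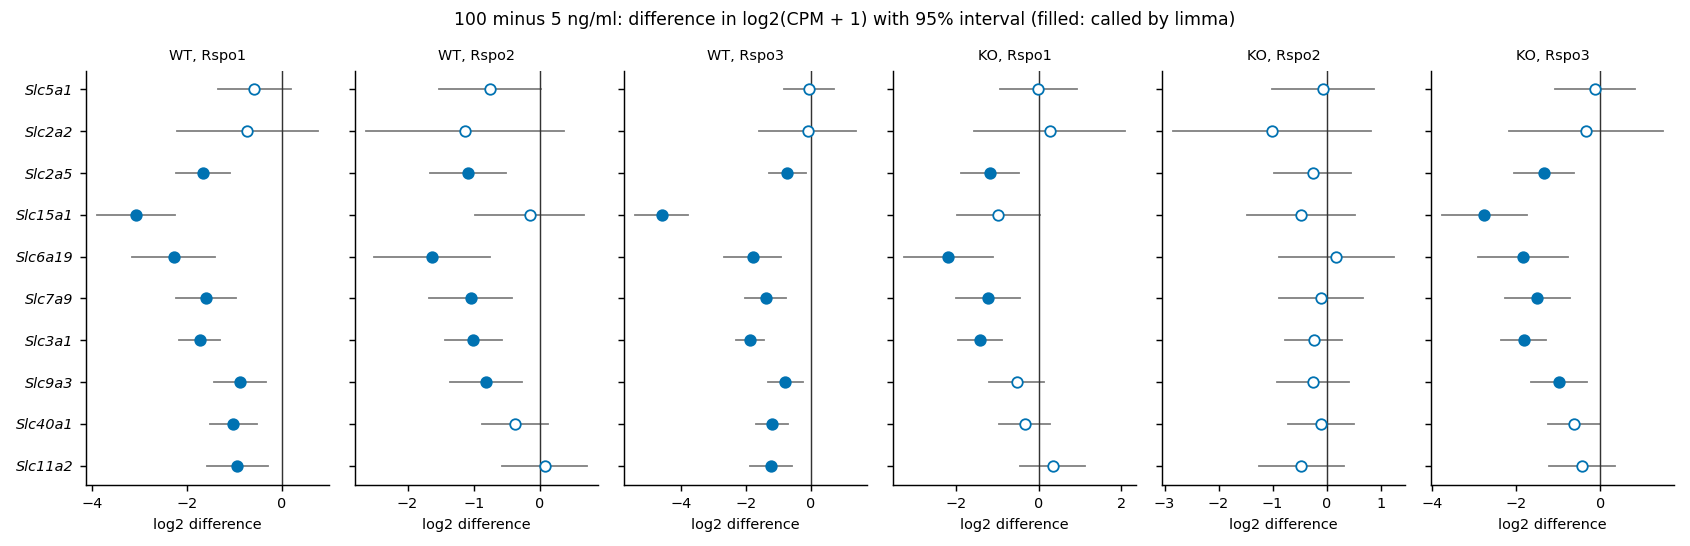
Difference in log2(CPM + 1) between 100 and 5 ng/ml for each transporter, by genotype and ligand, with bars for the 95% interval and filled points for genes called. Filled points number 8, 5 and 8 in WT and 4, 0 and 6 in KO organoids for Rspo1, Rspo2 and Rspo3, all on the negative side.

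KO organoids gave 10 of 30 calls between doses, again all lower at 100 ng/ml. With Rspo1, 4 members fell (29.8% of genes called, median -0.76 against 0.19), with Rspo2 none (0.115% called, 22 genes, and no member with an unadjusted p under 0.05, median -0.25 against 0.03), and with Rspo3, 6 fell (44.5% called, median -1.16 against 0.24). Slc2a5, Slc6a19, Slc7a9 and Slc3a1 were called with both Rspo1 and Rspo3. Slc3a1 went from 251 and 219 CPM in cultures 7 and 2 to 65.55 and 114 CPM with Rspo1, and from 410 and 383 CPM to 111.5 and 111.0 CPM with Rspo3. Slc15a1 was called with Rspo3, from 218 and 211 CPM to 42.1 and 22.85 CPM (-2.75 ± 0.48, adjusted p = 8.61e-05), as was Slc9a3 (-0.99 ± 0.32, adjusted p = 0.0159). The calls rest on 2 cultures, and without culture 7 or culture 2 the count was 5 or 6.

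At 5 ng/ml of Rspo2 the KO cultures did not agree. Culture 2 had 90.45 CPM of Lgr5 and a stem cell marker sum of 2388 CPM there, against 75.0 and 1928 CPM at 100 ng/ml, while culture 7 had 20.55 and 922.9 CPM at 5 ng/ml against 104 and 2213 CPM at 100 ng/ml. Slc6a19 was at 104 CPM at 5 and 171 CPM at 100 ng/ml in culture 2, and at 64.3 and 50.3 CPM in culture 7. In KO organoids CPM was higher at 5 ng/ml of Rspo2 in 12 of 20 pairs of a member with a culture, against 43.3% over all genes. The count was 17 of 20 with Rspo1 and with Rspo3, against 33.8 and 33.3%. Here too the members of a culture share its libraries.

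Whether the dose response itself differed by genotype was tested as KO minus WT. No member was called with Rspo1 (0% of genes called, 2 members with an unadjusted p under 0.05), Rspo2 (0.439% called, 2 members) or Rspo3 (0% called, 1 member). The largest differences were for Slc15a1, whose fall was smaller in KO organoids by 2.10 ± 0.62 with Rspo1 and by 1.85 ± 0.62 with Rspo3, with an adjusted p of 1 in both. Slc6a19 differed by 1.82 ± 0.67 with Rspo2 (adjusted p = 0.239), which became 0.0171 with the culture as a block, the 1 call of that fit. That fit called 761 genes over the 3 ligands, against 84 without the block.

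The plot of organoid values led to a further comparison, chosen after the values were seen, of the dose response with Rspo2 minus that with Rspo1 or Rspo3. In WT organoids 1 member differed against Rspo1 (4.7% of genes called) and 3 against Rspo3 (23% called). In KO organoids 0 differed against Rspo1 (2.22% called, 3 members with an unadjusted p under 0.05) and 2 against Rspo3 (22.4% called). The fall of Slc15a1 in WT organoids was smaller with Rspo2 by 2.93 ± 0.56 than with Rspo1 (adjusted p = 0.00663) and by 4.45 ± 0.56 than with Rspo3 (adjusted p = 1.17e-05), and in KO organoids by 2.27 ± 0.68 than with Rspo3 (adjusted p = 0.0193). Slc3a1 differed from Rspo3 by 0.86 ± 0.30 in WT (adjusted p = 0.0383) and 1.58 ± 0.36 in KO organoids (adjusted p = 0.00297), and Slc11a2 by 1.30 ± 0.44 in WT organoids (adjusted p = 0.0357). With the culture as a block, 7 calls were made in WT and 6 in KO organoids in place of 4 and 2, while calls over all genes went from 5305 to 9849 and from 4719 to 9602. Without WT culture 10 or 5 the count in WT organoids was 1, and without KO culture 2 the count in KO organoids was 0. The doses are by mass, and activity per mass of the 3 ligands was not measured in these files. The paper reports pilot tests of the concentrations, meant to make the bioactive amounts of the ligands comparable.

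Ligands were also compared with Rspo1 at each dose, and these contrasts share the Rspo1 libraries. At 100 ng/ml no member was called in either genotype. In WT organoids Rspo2 had 0.204% of genes called and 1 member with an unadjusted p under 0.05, and Rspo3 had 0.00523% called and 4 such members. In KO organoids 0.0105% of genes were called with Rspo2 and 0% with Rspo3, with no such member. At 5 ng/ml the ligands separated. With Rspo2 in WT organoids 3 members were lower than with Rspo1 (22.8% called), Slc15a1 (-2.98 ± 0.40, adjusted p = 7.71e-05), Slc6a19 (-1.34 ± 0.42, adjusted p = 0.0256) and Slc3a1 (-1.01 ± 0.21, adjusted p = 0.00191). With Rspo3, Slc15a1 (1.45 ± 0.40, adjusted p = 0.0152) and Slc9a3 (0.92 ± 0.26, adjusted p = 0.0196) were higher (16.4% called).

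KO organoids at 5 ng/ml showed 2 members lower with Rspo2 than with Rspo1 (17.9% called), Slc6a19 (-2.09 ± 0.52, adjusted p = 0.00848) and Slc3a1 (-1.20 ± 0.26, adjusted p = 0.00357), and 2 higher with Rspo3 (16.2% called), Slc15a1 (1.73 ± 0.48, adjusted p = 0.0165) and Slc3a1 (0.76 ± 0.26, adjusted p = 0.0465). With the culture as a block the calls in WT organoids went from 5 to 19, while those over all genes went from 7532 to 15605, and 5 of the 19 were at 100 ng/ml of Rspo3, where Slc5a1, Slc2a2, Slc2a5, Slc9a3 and Slc40a1 were higher than with Rspo1 (adjusted p = 0.00606 to 0.0357). Slc2a2 differed widely between cultures, with 8.0, 11.2 and 25.75 CPM in WT cultures 10, 5 and 30 with Rspo1 and 88.25, 24.05 and 146 CPM with Rspo3. Without WT culture 10 the count without a block was 1.

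Genotype was compared within each of the 6 media. Of 60 member tests 7 were called, all higher in KO organoids, and all were of Slc11a2 or Slc15a1. By medium these were 1 at 100 ng/ml of Rspo1 (0.214% of genes called), 0 at 5 ng/ml (0.125%), 2 at 100 ng/ml of Rspo2 (1.2%), 2 at 5 ng/ml (4.54%), 2 at 100 ng/ml of Rspo3 (0.868%) and 0 at 5 ng/ml (0.193%). In the 2 media with none, 1 member had an unadjusted p under 0.05, Slc11a2 in both. Using the mean of each culture over its 6 libraries, 1 member was called, Slc11a2 (0.152% of genes called).

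Slc11a2 was at 555 and 310 CPM in KO cultures 7 and 2 against 95.95, 106 and 76.65 CPM in WT cultures 10, 5 and 30 at 100 ng/ml of Rspo1 (2.16 ± 0.35, adjusted p = 0.00272). At 5 ng/ml of Rspo2 it was at 474 and 568 CPM against 107.5, 113 and 94.2 CPM (2.30 ± 0.35, adjusted p = 7.97e-04). The lowest KO library in each medium lay above the highest WT library, and over all media KO libraries spanned 269.5 to 581 CPM and WT libraries 60.25 to 284 CPM. Over culture means the difference was 1.62 ± 0.13 (adjusted p = 0.00693), with 460 and 395 CPM in KO against 155, 147 and 136 CPM in WT cultures. It held in each fit that left out 1 culture and was not called without the filter on low values (adjusted p = 0.0633). Gm5475, a gene on the opposite strand that shares 402 exon bases with Slc11a2, rose with it (1.73 ± 0.17 over culture means, adjusted p = 0.0244), at 18.8 to 48.95 CPM in KO and 3.45 to 22.3 CPM in WT organoids, and without strand, reads over these shared bases, a small part of the 6354 exon bases of Slc11a2, cannot be assigned to 1 of the genes. In sorted cells at E16.5, Slc11a2 was at 69.0 and 53.5 CPM in HE and 42.55 and 51.65 CPM in KO pools (95% interval -0.81 to 0.07).

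Slc15a1 at 100 ng/ml was at 27.35 and 37.25 CPM in KO against 9.8, 12.05 and 3.6 CPM in WT cultures with Rspo1 (1.93 ± 0.44, adjusted p = 0.0892), at 29.35 and 27.7 CPM against 12.7, 6.9 and 4.35 CPM with Rspo2 (1.82 ± 0.44, adjusted p = 0.0407), and at 42.1 and 22.85 CPM against 13.45, 4.75 and 5.7 CPM with Rspo3 (1.96 ± 0.44, adjusted p = 0.0325). KO libraries were above WT libraries in all 3. At 5 ng/ml it was higher with Rspo2, at 40.65 and 39.55 CPM against 5.7 to 13.3 CPM (2.15 ± 0.44, adjusted p = 0.00951), and overlapped with Rspo1 (95% interval -1.09 to 0.74) and Rspo3 (-0.81 to 1.02). The calls at 100 ng/ml of Rspo2 and Rspo3 were lost without the filter or with a pseudocount of 0.1. Over culture means the difference was 1.30 ± 0.22 (adjusted p = 0.158). The other 8 members had no call between genotypes in any medium.

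**Figure D5:**
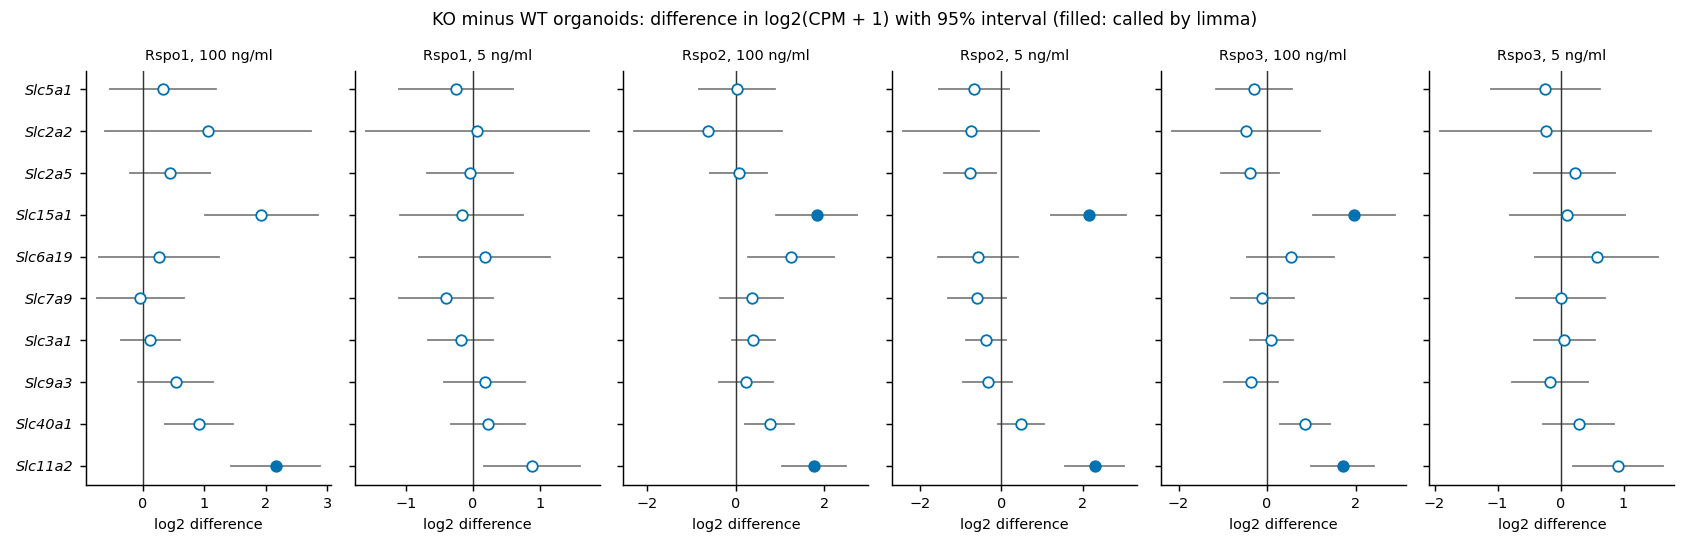
Difference in log2(CPM + 1) between KO and WT organoids for each transporter in the 6 media, with bars for the 95% interval and filled points for genes called. Slc11a2 lies between 0.88 and 2.30 in all 6 media and is filled in 4 of them, and Slc15a1 lies between 1.82 and 2.15 in the 4 media other than Rspo1 and Rspo3 at 5 ng/ml.

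Other genes of the same pathways were followed through 4 lists with 58 genes in all. From E16.5 to E18.5, 25 of 55 tested rose and 4 fell, beside 49.6% of all genes called, led by Slc13a1, a sulfate carrier (2.20), Slc39a4, a zinc importer (2.15), and Slc1a1, a glutamate carrier (2.14), and Hmox1, which breaks down heme, fell the most (-1.69). From E18.5 to adult 4 of 56 rose and 17 fell, beside 19% of all genes, with the widest falls in Slc30a10, a manganese exporter (-5.04), Slc34a2, a phosphate carrier (-4.91), and S100g, a calcium-binding protein (-4.58). In ileum against duodenum 4 of 54 were higher, led by Slc34a2 (2.83), and 9 lower, led by Slc6a20a, a proline carrier (-1.90), beside 6.88% of all genes. In the Cre line, grouped by the GEO labels, none of 54 was called (0.0504% of all genes) and 3 had an unadjusted p under 0.05, and the other genotypes were not run for these lists.

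With dose, in WT organoids, 33 of 56 were lower and 7 higher at 100 ng/ml of Rspo1, 19 lower and 2 higher with Rspo2, and 36 lower and 8 higher with Rspo3, beside 53.4, 33.4 and 51.4% of all genes called. In KO organoids the counts were 20 and 7, 0 and 0 (3 with an unadjusted p under 0.05), and 33 and 7, beside 29.8, 0.115 and 44.5% of all genes. Slc5a4b, a sugar carrier of the Slc5a1 family, was lower at 100 ng/ml in WT organoids with Rspo1 (-3.88) and Rspo3 (-5.69), as was Slc13a1 (-2.59 and -3.74). Slc12a2, the basolateral sodium-potassium-chloride cotransporter, was higher at 100 ng/ml with each ligand in WT organoids (2.43, 2.11 and 3.38), and Slc7a5 (2.12 and 2.58) and Slc1a5 (1.56 and 2.05), amino acid carriers common in dividing cells, were higher with Rspo1 and Rspo3. In WT organoids the enterocyte marker sum was 4239 to 5129 CPM at 100 and 10490 to 11020 CPM at 5 ng/ml of Rspo1. It was 4787 to 7142 and 7734 to 14060 CPM with Rspo2, and 7445 to 11840 and 14910 to 15450 CPM with Rspo3. The sum of 6 proliferation genes was 1105 to 1543 CPM at 100 and 489 to 664 CPM at 5 ng/ml of Rspo1. It was 1081 to 1351 and 952 to 1182 CPM with Rspo2, and 1174 to 1203 and 168.5 to 279 CPM with Rspo3. The part of these markers in the dose results was not tested.

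Over the 30 organoid libraries, the genes most like each member by Pearson correlation of log2(CPM + 1), among 12338 genes with a mean of at least 5 CPM, were as follows, as a description of libraries that share cultures and media. Slc3a1 was nearest to Nr1i3 (r = 0.990), a nuclear receptor, and Slc7a7 (0.990), a basolateral amino acid carrier. Slc15a1 was nearest to Apol7a (0.975) and Dpep1 (0.974), a peptidase of the brush border. Among the genes nearest to Slc5a1 was Sis (0.951), the sucrase. Slc2a2 was nearest to Slc25a44 (0.952), Slc6a19 to B3gnt7 (0.961), Slc7a9 to Mfsd4b5 (0.976), Slc2a5 to Wdtc1 (0.967), Slc9a3 to Galm (0.937) and Slc40a1 to Phyh (0.937). Slc11a2 was nearest to the overlapping Gm5475 (0.985), and its next gene, Prr15, was at 0.882. Among the members themselves, Slc9a3 and Slc2a5 (0.929) and the subunit pair Slc3a1 and Slc7a9 (0.919) were the closest.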

How the data were processed

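RNA from sorted cells (15 libraries, Ovation SoLo kit) and organoids (30 libraries, NEBNext kit) was sequenced. The authors trimmed reads with Trimmomatic 0.36, mapped them to GRCm38 with STAR 2.5.3a, counted them on Ensembl release 90 genes with HTSeq 0.9.1 and deposited CPM, rounded up to the next 0.05. Whether counting used strand is not given in the sources used here. Depth was read from the spacing of low values.

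Values were taken as log2(CPM + 1), so fold changes of low genes are understated. A gene entered a fit when it reached 1 CPM in a number of libraries equal to the size of the smaller group (sorted cells) or in 2 libraries (organoids). Fits were made with limma 3.58.1 (eBayes with trend, R 4.3.3), 1 fit per sorted comparison and 1 fit of 12 groups for the organoids, with Benjamini-Hochberg adjustment. Calls required FDR 0.1 and a fold of 1.5 (sorted cells) or FDR 0.05 (organoids). In the E16.5 pools 100% of the low values were whole reads, and edgeR 4.0.16 (quasi-likelihood test) was run on them. The scripts were tested on simulated data.

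Pairs came from the labels: E16.5 pools share litters, adult regions share mice and organoid libraries share cultures. Deviations of same-numbered samples correlated at -0.037, 0.344 and, as medians, 0.485 (WT) and 0.481 (KO). Libraries of the other comparisons are separate samples, whose p-values measure the spread between these samples only. Named genes were all members, up to 3 called genes of the related lists with the widest differences in each direction, and the 3 genes most correlated with a member over the organoid libraries, of which some genes are not reported here. The members and lists were chosen with earlier results of these data known. Python 3.11.15 was also used.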

Additional observations from a re-analysis of the deposited data

Results flagged for a closer look

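A test of the difference itself, chosen after the values were seen, set the dose response (100 against 5 ng/ml) with Rspo2 apart from that with another ligand for 3 members, on the log2(CPM + 1) scale. In WT organoids the fall of Slc15a1 from 5 to 100 ng/ml was smaller with Rspo2 than with Rspo1 by 2.929 and than with Rspo3 by 4.45, and in KO organoids it was smaller than with Rspo3 by 2.273. The fall of Slc3a1 was smaller with Rspo2 than with Rspo3 by 0.862 in WT and by 1.584 in KO organoids. That of Prepl, which overlaps Slc3a1 on the opposite strand, was smaller by 0.58 and 0.88, both called. Slc11a2 fell with Rspo3 and was not called with Rspo2 in WT organoids, a difference of 1.299. In the paper full organoid survival was reached at 5 ng/ml of Rspo2 but needed 100 ng/ml of Rspo1 or Rspo3, and its part here was not tested. Without WT culture 10 or WT culture 5, of the 4 values in WT organoids 1 was still called, that of Slc15a1 against Rspo3, and without KO culture 2 neither value in KO organoids was called. The values for Slc3a1 and Slc11a2 in WT organoids were not called without the filter on low values (adjusted p = 0.0787 and 0.0761 by limma).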

How the results depend on the processing

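No direction of a called result reversed. Counts of members called moved with TMM scaling from 7 to 4 (E18.5 against E16.5), from 0 to 1 (E16.5 KO against HE) and from 2 to 4 (Rspo2 minus other dose responses, KO). Without the filter they moved from 2 to 0 (ileum against duodenum), from 4 to 2 (Rspo2 minus other dose responses, WT) and from 1 to 0 (KO against WT culture means). One fit of all sorted libraries and edgeR each gave 1 in E16.5 KO pools, the genotypes of the supplementary table gave 2 in the Cre line, and a fit of WT organoids alone gave 8 against 5 ligand calls. With the replicate block the counts became 3 in E16.5 KO pools, 1 for KO minus WT dose responses, 19 for ligands in WT, and 7 (WT) and 6 (KO) for Rspo2 minus other dose responses, and elsewhere stayed within 1.5 times. Leaving out 1 library or culture gave 0 to 6 calls for E18.5 against E16.5, 4 to 9 for adult against E18.5, 0 to 2 for ileum against duodenum, 5 to 11 for dose in KO, 3 to 7 for KO against WT, 1 to 8 and 0 to 5 for ligands in WT and KO, and 1 to 5 and 0 to 4 for Rspo2 minus other dose responses in WT and KO. A lone library left in a group was assumed to vary like the others. Over all genes, the calls in E16.5 KO pools went from 91 to 830 (block), 243 (TMM), 1259 (one fit) and 310 (edgeR), and to 0 (no filter), 2 (pseudocount 0.1), 12 (FDR 0.05) and 0 to 8 with a library left out. Those for ileum went from 1280 to 2065 (block), 223 (no filter), 793 (FDR 0.05) and 68 to 612 with a library left out, those in the Cre line from 10 to 779 (other genotypes), 18 (no filter), 16 (block) and 3 (one fit), those for ligands in WT from 7532 to 15605 (block) and 4091 (fold limit), and those for KO minus WT dose responses from 84 to 761 (block), 47 (TMM), 35 (pseudocount 0.1) and 7 to 484 with a culture left out. The cause of these shifts was not tested. Among single values, 122 lost and 84 gained a call under an alternative. Recovery of whole reads was tried for the E16.5 pools only, so edgeR was not run for the other sorted comparisons. One read was worth up to 0.784 CPM in sorted cells, which limits what can be said of Slc2a2, Slc2a5 and Slc15a1 there.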
